A study of Mus musculus with 34 samples.

Results

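In macrophages from PPARγ knockout mice, the resting ATF3, Jun and JunD peak lists were compared with each other. The 3 lists held 28318 ATF3, 4290 Jun and 19355 JunD peaks out of 596383 peaks in the 30 deposited lists of the series. Merging peaks of different monomers with 1 bp or more in common gave 35464 loci, and each was placed in 1 of 7 classes by which of the 3 monomers had a peak there. The cells were thioglycollate-elicited macrophages (TGEMs), primary cells that gather in the peritoneal cavity after an irritant is injected and that were collected 3 days later. All samples used here were treated with vehicle (Veh, PBS) unless KLA, an agonist of the receptor TLR4 given for 1 h, is named. The genotypes were PPARgKO (labelled as strain C57Bl6), C57Bl/6 wild type and BALB/cJ. For the wild-type strains the methods give male mice aged 8 weeks, and neither sex nor age was stated for the knockout separately. The Cre line or other deleter behind the knockout was not given in the sources used here, the input libraries are labelled as wild-type strains only, and no PPARγ list from knockout cells was used, so the deletion itself could not be checked from the peaks.

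Each list stands for 1 condition, since biological replicates had been combined into it, so no value below has a replicate error and no difference between genotypes was tested. Intervals given with shares are 95% Wilson intervals, and those of differences are 95% Newcombe intervals. They cover the counting of loci only, and loci of 1 list are not replicates. The count of a peak, a whole number of sequence tags that was not scaled to library size, ran from 11 to 282 for ATF3, 11 to 128 for Jun and 13 to 236 for JunD in the knockout, with medians of 29, 18 and 35. Strength is therefore given as a percentile rank by count within a list, where 100 marks the strongest peak. Mapped reads per library were not used here, so the reading depth behind a missing peak is unknown, and a locus without a peak is 1 that did not pass the peak calling, not 1 shown to be unbound.

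ATF3, Jun and JunD belong to the AP-1 family of basic leucine zipper factors, which bind DNA as dimers, most often at the TPA response element (TRE) TGACTCA. PPARγ is a nuclear receptor that binds with RXR and directs lipid handling genes in macrophages and adipocytes, and the hexamer it reads is AGGTCA. PU.1, an Ets factor, and CEBPα, another basic leucine zipper factor, help set the enhancers of the macrophage lineage. PU.1, CEBPα and PPARγ had been mapped in wild-type cells only, so overlap with them describes where knockout AP-1 loci lay relative to wild-type sites.

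The strongest locus of each class on the assembled chromosomes is shown at the sequence level as an example. The central 200 bp of each are printed below from the plus strand of GRCm38 (mm10), named by the gene with the nearest transcription start site (TSS), with capitals marking every exact match, on either strand, to one of the searched motifs. These were the TRE, the cAMP response element TGACGTCA, the PU.1 site AGGAAGT, a CEBP site (TTGCNCAA), a composite ATF and CEBP element (TGATGCAA), the PPAR hexamer AGGTCA, a direct repeat of it named DR1, a Runx site TGTGGTT, an E-box TCACGTG and an Sp1 site CCCCGCCC.
Tax1bp1, all 3, chr6:52825643-52825842: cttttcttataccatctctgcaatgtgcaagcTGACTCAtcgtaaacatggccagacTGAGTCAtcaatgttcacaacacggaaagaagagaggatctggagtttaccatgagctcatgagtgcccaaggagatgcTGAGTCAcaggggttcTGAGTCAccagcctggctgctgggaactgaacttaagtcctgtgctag
Zfpm1, ATF3 and JunD, chr8:122144939-122145138: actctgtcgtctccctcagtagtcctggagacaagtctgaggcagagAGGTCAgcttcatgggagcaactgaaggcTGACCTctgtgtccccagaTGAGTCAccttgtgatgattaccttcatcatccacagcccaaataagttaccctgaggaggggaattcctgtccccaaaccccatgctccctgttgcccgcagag
Prss56, ATF3 and Jun, chr1:87180940-87181139: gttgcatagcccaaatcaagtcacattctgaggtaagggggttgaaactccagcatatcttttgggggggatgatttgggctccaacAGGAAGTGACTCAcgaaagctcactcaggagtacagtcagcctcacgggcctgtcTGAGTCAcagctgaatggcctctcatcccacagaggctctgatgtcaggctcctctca
Tbc1d31, Jun and JunD, chr15:57906714-57906913: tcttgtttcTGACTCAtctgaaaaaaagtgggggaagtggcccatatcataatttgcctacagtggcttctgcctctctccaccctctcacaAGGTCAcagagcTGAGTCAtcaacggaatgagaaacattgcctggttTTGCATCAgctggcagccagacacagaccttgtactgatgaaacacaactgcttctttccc
Atf3, ATF3 only, chr1:191183285-191183484: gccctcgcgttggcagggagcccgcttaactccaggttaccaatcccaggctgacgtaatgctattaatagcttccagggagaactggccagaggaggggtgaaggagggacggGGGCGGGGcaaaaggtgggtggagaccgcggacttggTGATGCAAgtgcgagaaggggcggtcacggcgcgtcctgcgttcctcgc
Hlx, JunD only, chr1:184618181-184618380: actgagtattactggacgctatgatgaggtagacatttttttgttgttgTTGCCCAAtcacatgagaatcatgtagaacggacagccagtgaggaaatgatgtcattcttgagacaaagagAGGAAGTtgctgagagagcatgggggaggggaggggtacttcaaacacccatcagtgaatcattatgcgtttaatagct
Tmem267, Jun only, chr13:119601924-119602123: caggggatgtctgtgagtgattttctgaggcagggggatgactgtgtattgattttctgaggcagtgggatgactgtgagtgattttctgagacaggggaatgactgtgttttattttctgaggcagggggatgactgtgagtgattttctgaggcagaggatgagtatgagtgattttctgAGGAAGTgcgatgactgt

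The locus with all 3 monomers lay in an intron of Jazf1, 112014 bp from the nearest TSS, that of Tax1bp1, and held 4 TREs. The ATF3 and JunD locus nearest Zfpm1, inside an intron of the readthrough model Gm20388, held 1 TRE and 2 PPAR hexamers. The ATF3 and Jun locus, intergenic and 2273 bp from the TSS of Prss56, held 2 TREs and a PU.1 site, and the Jun and JunD locus, 5385 bp from Tbc1d31, held 2 TREs, 1 composite element and 1 PPAR hexamer. The Atf3 promoter, the strongest locus with ATF3 alone, held no TRE and carried the composite element and an Sp1 site. The JunD only locus far from Hlx held a PU.1 and a CEBP site, and the Jun only locus in an intron of Tmem267 held a single PU.1 site. Much of the Tmem267 window was made of near copies of the same short run of bases. That locus met no wild-type PU.1, CEBPα or PPARγ peak, and how reads mapped there was not tested.

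Loci with 1 monomer made up most of the knockout map. ATF3 alone held 15115 of the 35464 loci (42.6%), JunD alone 6808 (19.2%) and Jun alone 221 (0.623%). ATF3 and JunD shared 9251 loci without Jun (26.1%), while ATF3 and Jun shared 773 (2.18%) and Jun and JunD 118 (0.333%). All 3 monomers met at 3178 loci (8.96%, 8.67 to 9.26). In wild type all 3 met at 10558 of 29552 loci (35.7%), and in BALB/cJ at 8616 of 33546 (25.7%).

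**Figure D1:**
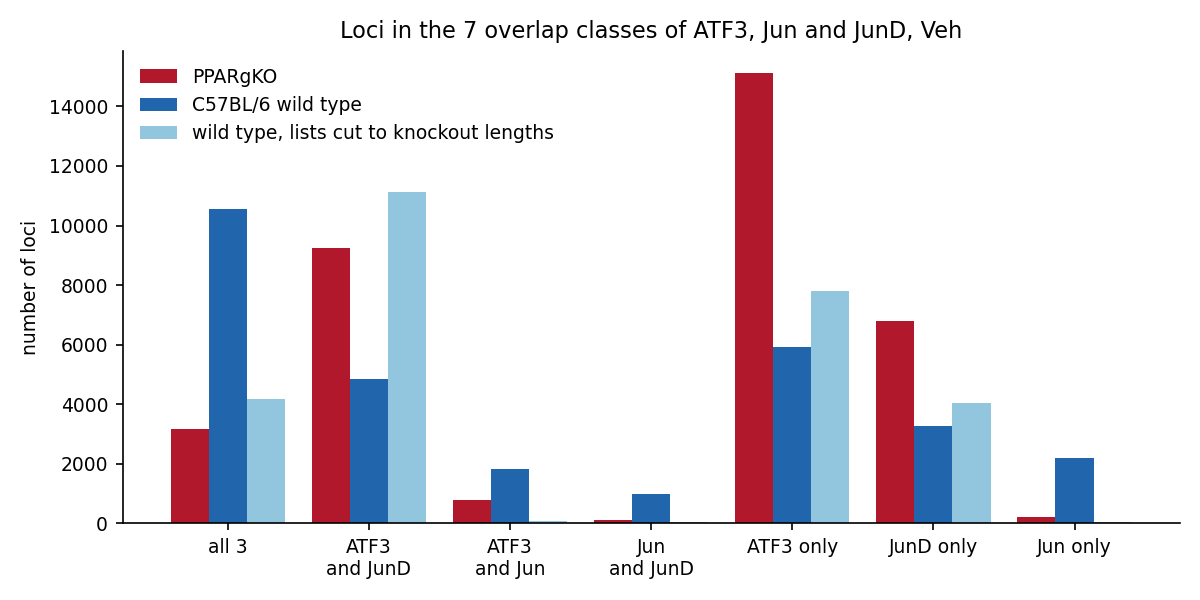
Number of loci in each of the 7 overlap classes of ATF3, Jun and JunD peaks, with 1 bar each for the knockout, for wild type, and for wild type with the Jun and JunD lists shortened by count to the knockout lengths. ATF3 only is the largest class of the knockout with 15115 loci, and all 3 is the largest class of wild type with 10558.

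The lists differed in length, and this bears on the classes. The Jun list held 4290 peaks in the knockout against 15548 in wild type and 10957 in BALB/cJ, JunD 19355 against 19653 in wild type, and ATF3 28318 against 23160. The highest score of agreement between replicates (IDR score 1000) was reached by 43.1% of knockout Jun peaks. For Jun it was 59.1% in wild type and 54.0% in BALB/cJ, and in the knockout 61.0% for ATF3 and 64.7% for JunD. When the strongest 4290 Jun and 19355 JunD peaks of wild type were used in place of the whole lists (the ATF3 list was already shorter), all 3 monomers met at 4156 of 27234 loci (15.3%), ATF3 and JunD at 11128 (40.9%), and ATF3 stood alone at 7792 (28.6%). At matched Jun and JunD length the knockout thus held 3178 loci with all 3 against 4156, and 15115 with ATF3 alone against 7792. The ATF3 lists were not matched in this. With the knockout ATF3 list reduced to its strongest 19506 peaks, the BALB/cJ length, ATF3 stood alone at 8517 of 28866 loci. The wild-type ATF3 list of 23160 peaks is longer than that, so this value is not matched to wild type either.

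Jun was seldom seen by itself in the knockout. Of its 4290 loci, 3951 (92.1%) also had ATF3, 3296 (76.8%) also had JunD, and 221 (5.15%) had neither. The strongest 4290 wild-type Jun peaks were accompanied by ATF3 at 98.6%, by JunD at 97.7%, and by neither at 0.629%, whereas over the whole wild-type Jun list 14.0% had neither. JunD had ATF3 beside it at 64.2% of its knockout loci and 78.4% of its wild-type loci. ATF3 had no partner at 53.4% of its knockout loci, at 25.6% in wild type, and at 33.7% against the shortened wild-type lists.

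Peak strength and the number of monomers went together. Loci with all 3 had a median percentile of 89.0 in the ATF3 list, 88.5 in the JunD list and 59.5 in the Jun list. ATF3 and JunD loci had medians of 56.5 and 57.9, and loci of 1 monomer had 37.3 for ATF3, 21.9 for JunD and 16.4 for Jun. Of the all 3 loci, 46.8% were among the top 10% of the ATF3 list, against 2.61% of the ATF3 only loci. The 773 ATF3 and Jun loci joined strong ATF3 peaks (median percentile 76.0) to weak Jun peaks (33.0), and the 118 Jun and JunD loci joined JunD peaks at 62.1 to Jun peaks at 24.8.

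**Figure D2:**
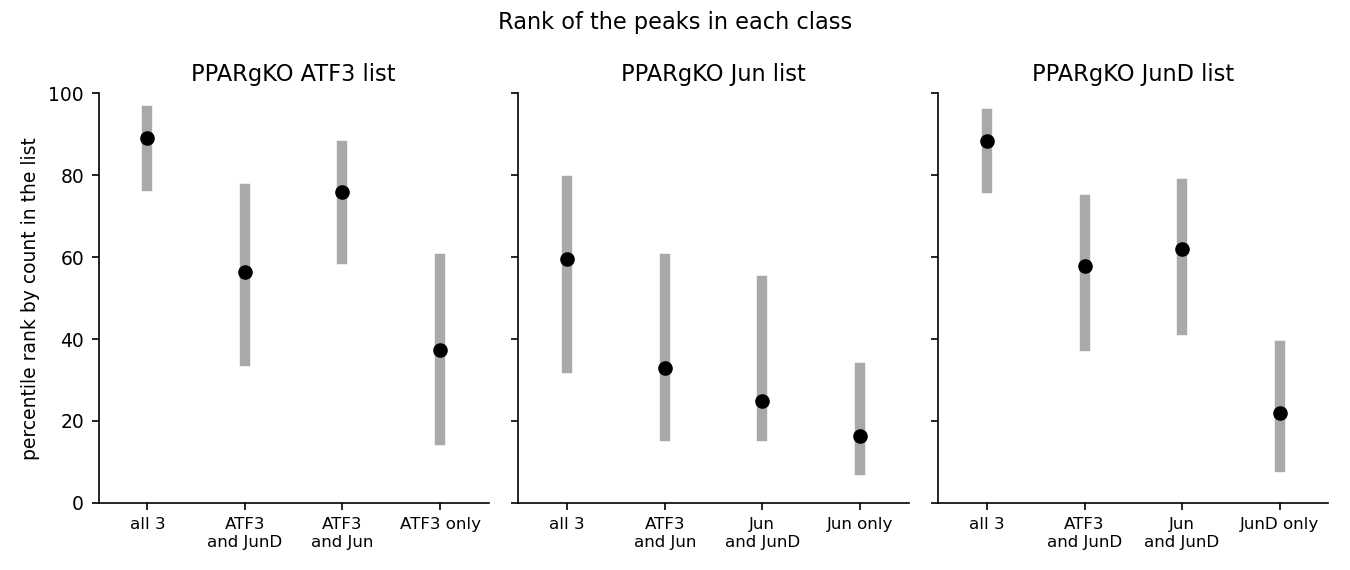
Percentile rank by count (y axis, 0 to 100) of the peaks of each class in the knockout ATF3, Jun and JunD lists, with points for medians and bars for the quartiles. All 3 loci sit highest in each list, at medians of 89.0, 59.5 and 88.5.

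The presence of Jun followed the strength of the ATF3 peak. In the knockout, 0.675% of the weakest 10% of ATF3 loci carried Jun, against 34.1% of the next to strongest 10% and 58.2% (1633 of 2804, 56.4 to 60.1) of the strongest 10%. In wild type the corresponding ends were 19.0% and 93%, in BALB/cJ 7.91% and 89.6%, and for the shortened wild-type lists 0.0462% and 79.8%. Even among the strongest knockout ATF3 loci, many had no Jun peak. JunD accompanied 18.5% of the weakest and 80.7% of the strongest 10% of knockout ATF3 loci. Within the all 3 class the counts of the monomers also moved together, with Spearman's rank correlations of 0.753 for ATF3 and JunD, 0.673 for Jun and JunD, and 0.637 for ATF3 and Jun over the 3178 loci. These are descriptions across loci of single lists, which share their chromatin and cells. The centres of ATF3 and JunD peaks lay a median of 19 bp apart there, and those of Jun a median of 25 bp from either.

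Named loci illustrate these ranks. The strongest locus with all 3, in the Jazf1 intron (chr6:52825633-52825854), had counts of 212 for ATF3, 55 for Jun and 227 for JunD. The next locus, at chr2:167649362-167649624 in an intron shared by Tmem189 and the readthrough model Gm20431, had 242, 50 and 203. Fmnl2, a formin that shapes actin filaments, held the strongest JunD peak of the knockout in an intron (chr2:52955181-52955434), with 195, 50 and 236. The strongest ATF3 peak (chr1:88587486-88587793), 77573 bp from Glrp1, had 282, 46 and 162. These 4 loci had all 3 monomers in wild type and in BALB/cJ too.

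Some of the strongest ATF3 loci lacked Jun and JunD. The Atf3 promoter (chr1:191183239-191183531), 45 bp from the TSS, had an ATF3 count of 261 (percentile 99.99) and no Jun or JunD peak in the knockout, while in wild type the same place had 327 for ATF3, 47 for Jun and 116 for JunD. ATF3 only loci also topped the class in an intron of Ptprj, a receptor tyrosine phosphatase (count 207), and 138602 bp from St8sia4, a sialyltransferase (count 200), both all 3 in wild type. The strongest ATF3 and JunD loci showed the same gap for Jun. Zfpm1, which encodes the GATA cofactor FOG1, was nearest to a locus with 156 for ATF3 and 197 for JunD in the knockout, against 305, 88 and 237 for ATF3, Jun and JunD in wild type. Intronic Morn4 had 159 and 174 against 253, 77 and 185, and the locus near Snx27, a sorting nexin of endosomes, had 157 and 167 against 246, 84 and 164. Counts are not scaled between lists, so only the presence of the peaks is read from these pairs.

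The strongest loci of the small Jun classes varied in what wild type held there. Near Prss56 the ATF3 and Jun locus had counts of 209 and 55 and was all 3 in wild type. A locus 71924 bp from Pfkfb3, a glycolytic regulator, had 226 and 47 and held ATF3 and Jun in the knockout, wild type and BALB/cJ. The Jun and JunD locus near Tbc1d31 (36 and 147) was all 3 in wild type and lay under the strongest wild-type ATF3 peak, with a count of 409. A Jun and JunD locus near Vav3 had 30 and 80 and was Jun and JunD in wild type too. Among JunD only loci, the 1 nearest Hlx, a homeobox gene, had a count of 140 (percentile 98.2) and was Jun and JunD in both wild-type strains. The strongest Jun only locus lay on an unplaced contig, with a count of 64. The next had 44 in the Tmem267 intron (percentile 98.4 of the Jun list), where no wild-type peak was found, and the third had 33 at 2807 bp from Mcl1, an apoptosis inhibitor, where wild type had ATF3 alone.

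A few strong loci lay off the assembled chromosomes. The knockout lists held 45 ATF3, 47 Jun and 66 JunD peaks on unplaced or unlocalized contigs, against 4, 3 and 5 in wild type and 0 in each BALB/cJ list, while the wild-type PPARγ list held 70. The strongest Jun peak of the knockout was 1 of these, at a locus with counts of 143, 128 and 157 and no wild-type AP-1 peak. Here and below, a wild-type AP-1 peak means a resting wild-type peak of ATF3, Jun or JunD. The 3 strongest loci with all 3 in the knockout and no Jun in wild type were all on contigs. By class, such loci numbered 13 of the 118 Jun and JunD loci and 11 of the 221 Jun only loci (4.98%), and under 1% of each other class. Their part in the results of the small Jun classes was not tested. Without them, 3161 loci had all 3 monomers, 10111 had exactly 2 and 22099 had exactly 1, against 3178, 10142 and 22144 with them. Positions and motifs below cover the 35371 loci on assembled chromosomes.

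JunD only loci were the class nearest to genes. Of them, 28.0% had their centre within 1 kb of a TSS of a protein-coding gene, against 17.5% of ATF3 only loci, a difference of 10.4 percentage points (9.21 to 11.7). ATF3 and JunD loci stood at 20.1%, ATF3 and Jun at 14.6% and all 3 at 9.78% (8.79 to 10.9), against 19.5% of all loci. Jun and JunD (22.9% of 105) and Jun only (19.0% of 210) had wide intervals, 15.9 to 31.8 and 14.3 to 24.9. The median distance to a TSS was 9227.5 bp for JunD only and 19194 bp for all 3. Introns outside promoters held 45.5% of all 3 loci and 37.0% of JunD only loci.

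Classes shared many nearest genes. The 3161 all 3 loci on chromosomes had 2175 nearest genes, and 57.1% of these genes were also nearest to a JunD only locus. The 15105 ATF3 only loci had 7103 nearest genes and the 6784 JunD only loci had 4590, with 2791 genes in common, which is 39.3% of the former and 60.8% of the latter. All loci together had 10617 nearest genes, so 7103 and 4590 are already large parts of them. The shared genes are therefore read as counts only, not as a link between classes.

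TREs were most frequent where the 3 monomers met. The exact TRE was found in the central 200 bp of 49.2% of all 3 loci, 32.9% of ATF3 and Jun, 28.6% of Jun and JunD and 26.2% of ATF3 and JunD. Among loci of 1 monomer it was found at 20.4% for ATF3, 12.9% for Jun and 10.8% for JunD. The share over all loci was 22.9%, and 3.69% in windows of the same length 2 kb to either side. Away from promoters the shares were 50.5% for all 3, 34.0% for ATF3 and Jun, 32.1% for Jun and JunD, 29.9% for ATF3 and JunD, 23.1% for ATF3 only, 14.7% for Jun only and 13.9% for JunD only.

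ATF3 only and JunD only loci differed in other letters. The composite ATF and CEBP element TGATGCAA was present at 5.49% of ATF3 only loci and 0.383% of JunD only loci, a difference of 5.11 points (4.72 to 5.51), with 0.500% and 0.486% in their flanks. The 26 JunD only loci with it were no more frequent than the flank share. The Sp1 site CCCCGCCC went the other way, at 8.52% of JunD only and 4.59% of ATF3 only loci, and at promoters alone it was found at 24.7% and 18.5%. Median GC content was 52.5% for JunD only and 48.0% for ATF3 only, and the part of base composition in the Sp1 shares was not tested. The cAMP response element was rare, at 1.72% of all loci.

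PPAR hexamers (AGGTCA) were found at 21.1% of all 3 loci (flanks 12.3%), 15.6% of ATF3 and JunD, 15.3% of ATF3 only and 13.6% of JunD only, against 12.6% in all flanks. All 3 loci exceeded ATF3 and JunD loci by 5.55 points (3.97 to 7.17). DR1, the full repeat in exact letters, was found at 21 of the 35371 loci (0.0594%), too few to compare. Exact letters miss degenerate sites, and a missing match says only that these letters were not in the window. Runx sites were at 7.78% of ATF3 and JunD loci (7.25 to 8.35, flanks 5.27%), 7.62% of all 3 (flanks 5.76%), 6.38% of ATF3 only (flanks 5.32%) and 5.85% of JunD only loci (flanks 5.59%).

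Loci with all 3 monomers had the highest shares on wild-type PU.1, CEBPα and PPARγ peaks. PU.1 peaks were under 50.0% of all knockout loci, CEBPα peaks under 26.1% and PPARγ peaks under 52.7%. For all 3 loci the shares were 73.1%, 49.9% and 88.1%, for ATF3 and JunD 61.8%, 32.8% and 69.2%, for ATF3 and Jun 62.5%, 42.7% and 71.3%, and for Jun and JunD 66.1%, 20.3% and 61.0%. ATF3 only stood at 42.5%, 24.9% and 40.3%, JunD only at 38.6%, 7.29% and 39.4%, and Jun only at 37.6%, 8.60% and 32.1%. Only 3.81% of all 3 loci met none of these factors, against 40.7% of JunD only loci.

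**Figure D3:**
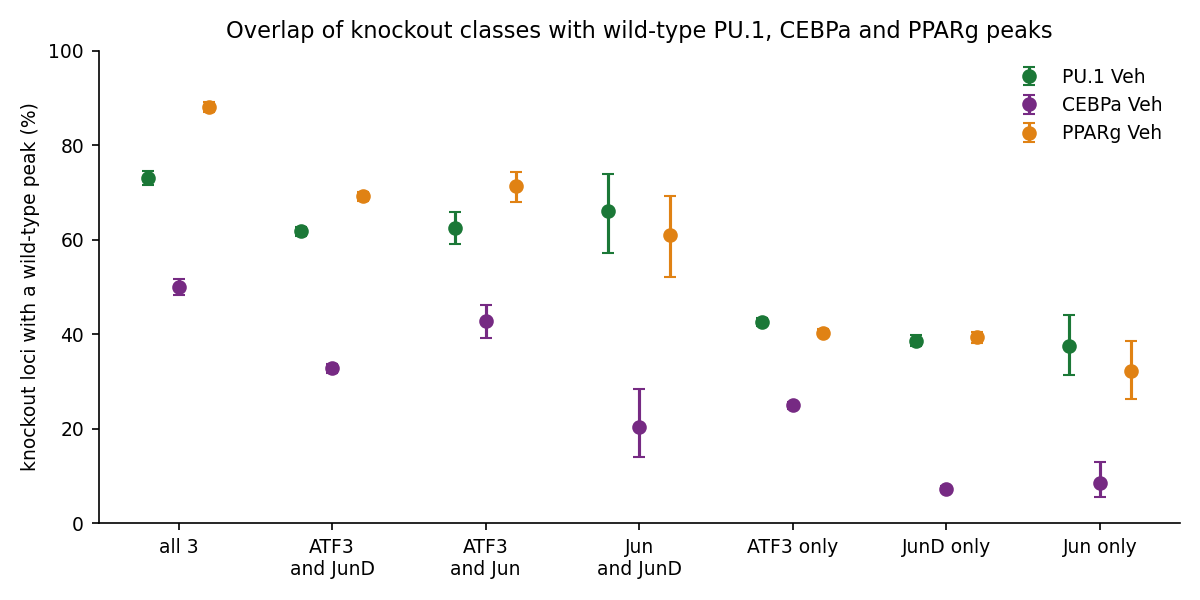
Share of the loci in each knockout class that overlap a wild-type PU.1, CEBPα or PPARγ Veh peak (y axis, percent), with 95% Wilson intervals over loci as bars. All 3 loci are highest for each factor (73.1%, 49.9% and 88.1%), and CEBPα is lowest at JunD only loci (7.29%).

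The factors separated the single-monomer classes to different degrees. ATF3 only exceeded JunD only by 17.7 points for CEBPα (16.7 to 18.6), by 3.91 points for PU.1 (2.51 to 5.30), and by 0.944 points for PPARγ, with an interval from -0.459 to 2.34. Among loci with a wild-type AP-1 peak, PU.1 was at 49.5% of ATF3 only and 60.2% of JunD only loci. Among those without, it was at 32.0% and 30.6%. PPARγ was lower at ATF3 only loci in both groups, at 49.8% against 61.4% and at 25.9% against 31.0%. CEBPα was higher there in both, at 34.4% against 16.9% and at 10.5% against 3.66%. The CEBPα gap was present away from promoters, at 26.6% against 8.25%, and at promoters, at 17.1% against 4.90%. The gap was not split by rank. Median percentiles were 37.3 for ATF3 only and 21.9 for JunD only loci, each within its own list. The ATF3 only share ran from 9.50% in the weakest of 5 rank bins of the ATF3 list to 66.9% in the strongest. Among loci without a wild-type AP-1 peak the medians were closer, 15.4 and 16.8, at the shares of 10.5% and 3.66% above. The part of peak strength in the gap was not tested. ATF3 and Jun loci also exceeded Jun and JunD loci for CEBPα, by 22.4 points (13.5 to 29.5). In wild type, JunD only loci met CEBPα at 11.4% and PU.1 at 60.3%, against 7.29% and 38.6% for the knockout class of the same name.

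Differences between classes were also taken within bins of rank. All 3 loci exceeded loci of 1 monomer by 31.8 points for PU.1 (30.1 to 33.5) and by 30.6 points for CEBPα (28.8 to 32.4). Within the top 20% of loci by mean rank the PU.1 difference was 21.0 points (17.5 to 24.5), and the CEBPα difference was -3.71 points (-7.37 to -0.0296). The mean rank covers 3 lists for all 3 loci and 1 list for loci of 1 monomer, so the 2 ranks are not alike. ATF3 only loci were 1203 of the 1269 loci of 1 monomer in this bin, against 15115 of 22144 in any bin. The mix of classes thus differs from that of the unmatched difference. The CEBPα interval in the top 20% included 0 under 5 of 8 alternative settings, among them loci on the assembled chromosomes alone (-7.25 to 0.101), so no direction is read from it. Between all 3 and ATF3 and JunD loci, CEBPα differed by 17.2 points (15.2 to 19.1) without matching, by -5.37 points (-8.32 to -2.40) in the strongest 20% of the ATF3 list and by -7.61 points (-11.7 to -3.35) in the next 20%. For PU.1 the difference was 5.82 points (3.10 to 8.55) in the strongest 20% and 2.03 points (-2.20 to 6.09) in the next. For PPARγ it was 7.11 points in the strongest 20%. ATF3 and JunD loci exceeded ATF3 only loci for PU.1 in each of 5 rank bins of the ATF3 list, by 12.4 to 18.4 points.

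**Figure D4:**
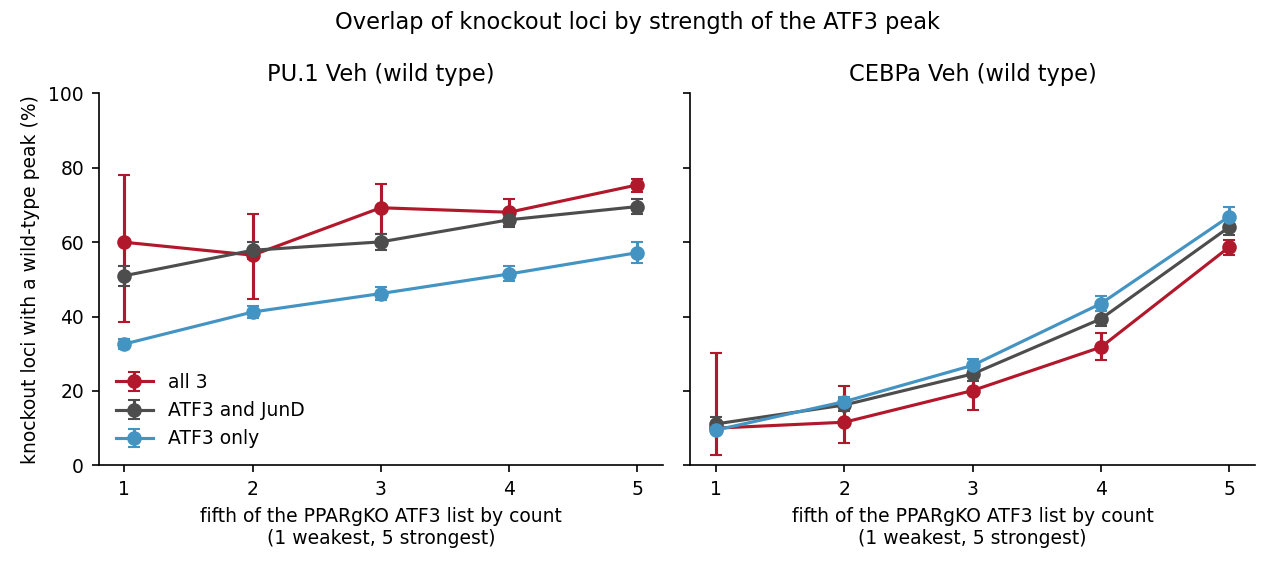
Share of knockout loci with a wild-type PU.1 peak (left) or CEBPα peak (right), in percent, by bin of the knockout ATF3 list, from 1 (weakest 20%) to 5 (strongest 20%), for all 3, ATF3 and JunD, and ATF3 only loci, with 95% Wilson intervals. For CEBPα the share is higher in stronger bins for each class, and all 3 loci lie below ATF3 and JunD loci in each bin (the weakest holds 20 all 3 loci), while for PU.1 the ATF3 only loci are lowest in each bin.

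Other AP-1 monomers of resting wild-type cells were most frequent at the all 3 class. FosL2 (named Fra2 in the labels) had a wild-type peak at 46.8% of all 3 loci, against 17.0% of ATF3 and JunD, 6.49% of ATF3 only and 12.7% of all knockout loci. Fos was at 13% of all 3 loci and 3.41% of all loci, and JunB at 4.53% and 0.922%. After KLA in wild type, 85.7% of all 3 loci carried Jun, as did 47.0% of ATF3 and JunD loci. JunD only loci met JunD after KLA at 23.4% and ATF3 at 23.9%.

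Most knockout loci were not in the same class in wild type. Over all classes 20.9% (7397) held exactly the same monomers in wild type and 35.8% (12691) held none. All 3 loci were the exception, with 83.9% (2666 of 3178, 82.6 to 85.1) all 3 in wild type as well and 1.51% (48) without any wild-type AP-1 peak. The same class was found for 17.3% of ATF3 and JunD, 16.8% of ATF3 only, 7.98% of JunD only, 5.43% of Jun only, 4.66% of ATF3 and Jun and 2.54% of Jun and JunD loci. ATF3 and Jun loci were mostly all 3 in wild type (64.4%).

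ATF3 and JunD loci without Jun in the knockout commonly had Jun in wild type. Of the 9251, 4566 (49.4%, 48.3 to 50.4) had a wild-type Jun peak, and 3709 (40.1%) were all 3 there. With the wild-type Jun list shortened to 4290 peaks, 13.6% had Jun and 43.9% were ATF3 and JunD in both. Against the shortened lists the same class was found for 28.3% of all loci and 61.7% of all 3 loci. With the knockout lists whole, the share of ATF3 and JunD loci called as without Jun in the knockout alone was thus 49.4% or 13.6%. The first is against the whole wild-type lists and the second against the shortened ones. With every list at 4290 peaks, those of the knockout included, it was 70.9%.

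**Figure D5:**
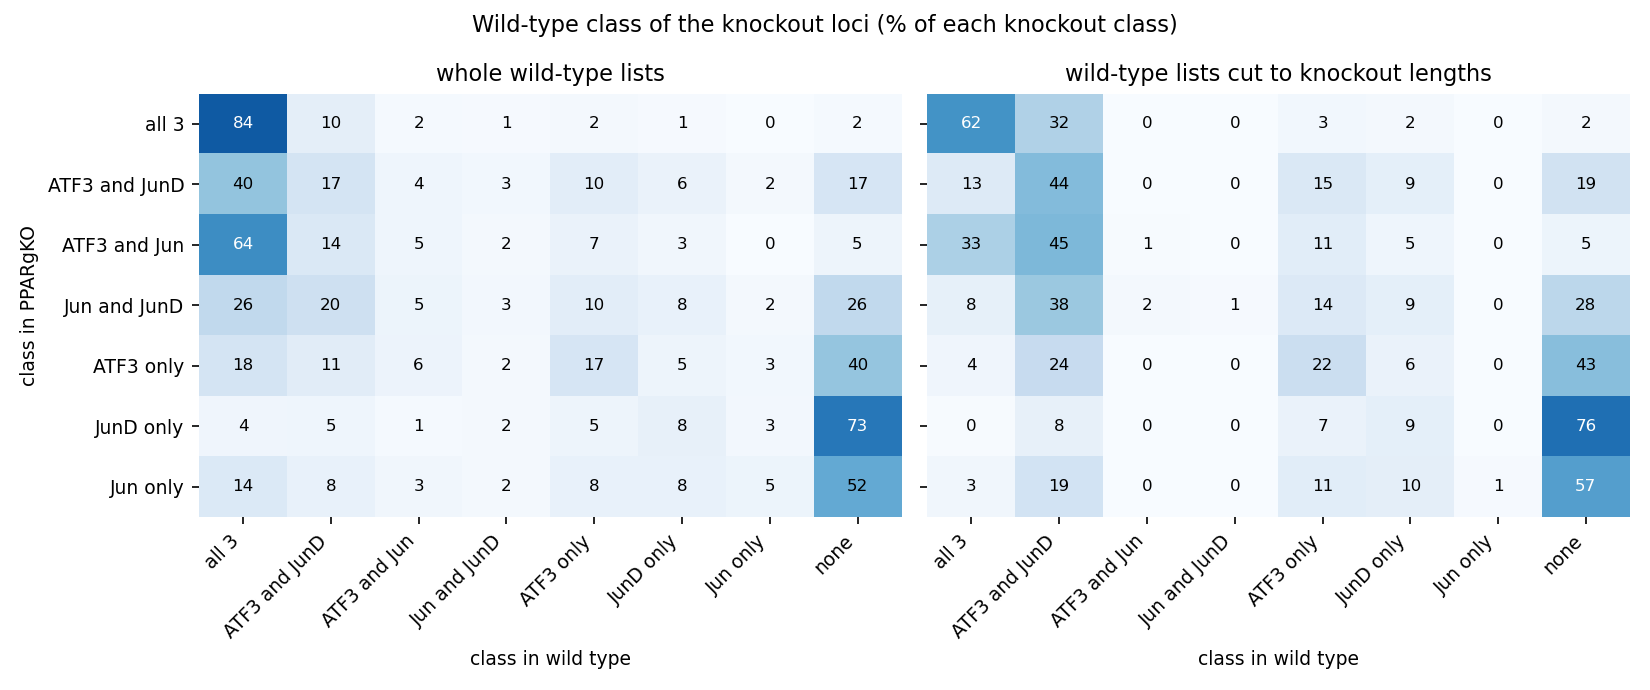
Wild-type class (columns) of the loci in each knockout class (lines of cells), in percent of the knockout class, against the whole wild-type lists (left) and lists shortened to the knockout lengths (right). Shade and printed value give the percent. All 3 loci match at 83.9% and 61.7%, and JunD only loci have no wild-type peak at 72.6% and 75.6%.

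The JunD only class had the highest share of loci without a wild-type peak of ATF3, Jun or JunD. There were 4941 of them (72.6% of the class), against 5974 in the larger ATF3 only class (39.5%), 52.0% of Jun only, 26.3% of Jun and JunD, 16.7% of ATF3 and JunD and 4.92% of ATF3 and Jun. They were weak. JunD only loci without a wild-type peak had a median percentile of 16.8 in the knockout JunD list, against 44.4 for those with 1, and for ATF3 only the medians were 15.4 and 51.1. They also met fewer wild-type factors, with PU.1 at 30.6% and CEBPα at 3.66% of JunD only loci without a wild-type AP-1 peak, against 60.2% and 16.9% of those with 1. The TRE was at 9.21% of the former and 14.9% of the latter.

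BALB/cJ served as a yardstick for how far 2 sets of lists differ. With each set reduced to its strongest 19506 ATF3, 4290 Jun and 19355 JunD peaks and compared with the whole wild-type lists, 23.5% of knockout loci and 30.6% of BALB/cJ loci held the same class, and 27.9% and 20.7% held none. For all 3 loci the same class was found at 84.8% in the knockout set and 88.8% in BALB/cJ. JunD only loci lacked a wild-type peak at 67.2% in the knockout set and 28.6% in BALB/cJ. For ATF3 only loci the shares were 15.7% and 42.0%. The reduction did not touch the lists alike. It shortened ATF3 in the knockout set alone, and JunD and Jun in the BALB/cJ set alone (Jun from 10957 to 4290 peaks). For ATF3 only and for JunD only loci, the set whose list of that monomer was shortened had the lower share. Without it, 39.5% of knockout ATF3 only loci had no wild-type peak. The list lengths and the genotypes cannot be told apart in these shares.

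From the wild-type side, 25.2% of the 10558 all 3 loci were all 3 in the knockout, 35.2% were ATF3 and JunD, 25.1% were ATF3 only, and 6.38% had no peak. ATF3 peaks of wild type met a knockout ATF3 peak at 44.5% in the weakest 10% and 98.8% in the strongest 10%, JunD peaks at 28.6% and 89.6%, and Jun peaks at 1.24% and 72.0%. Loci that were all 3 in both had a median wild-type Jun percentile of 85.5 (count 45), and those that were all 3 in wild type and ATF3 and JunD in the knockout had 62.2 (count 30). The Jun peaks without a counterpart in the knockout were thus weaker in wild type too.

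Loci with Jun in both and loci with Jun in wild type alone were compared further, with ATF3 and JunD present in both. Of these, 2666 had Jun in the knockout and 3708 on assembled chromosomes did not. PPARγ peaks were under 90.5% and 80.4%, a difference of 10.1 points (8.43 to 11.8), PU.1 under 74.8% and 69.9%, and CEBPα under 53.9% and 46.0%. The differences varied between 5 rank bins of the wild-type Jun list. Within the strongest 20% (1612 and 792 loci) they were 2.83 points for PPARγ (0.589 to 5.30), 2.17 for PU.1 (-1.40 to 5.86) and 3.23 for CEBPα (-0.944 to 7.43). FosL2 and the TRE differed there by 14.8 points (10.5 to 18.9) at 61.6% against 46.8%, and by 9.77 points (5.53 to 14.0) at 58.3% against 48.5%. In the next 20% (654 and 1065 loci) the difference was 7.59 points for PPARγ (4.10 to 10.9), 14.3 for FosL2 (9.50 to 19.0) and 7.80 for the TRE (3.01 to 12.6). In the 3 weaker bins, with 26 to 262 loci that had Jun in both, the PPARγ difference ran from 3.37 to 22.6 points, that of FosL2 from -7.63 to 4.22 and that of the TRE from 4.35 to 10.0. In the strongest 20% the PPAR hexamer stood at 23.0% with Jun in both and 21.8% with Jun in wild type alone, and the interval of the difference, -2.44 to 4.63 points, included 0.

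Gene lists were described by how many members held a knockout locus. A locus inside the gene or within 5 kb of it was found for 49.5% of 21924 protein-coding genes, an all 3 locus for 8.07%, and any locus with Jun for 10.5%. In wild type 19.9% of genes had an all 3 locus and 27.9% a locus with Jun, so over all genes too fewer had Jun in the knockout, and no list is called particular in this. Longer genes can hold more loci, and median length was 32.5 kb for the lineage regulators, 4.74 kb for the inflammatory mediators and 17.4 kb for all genes, so the lists are read as counts only. Within a gene, the strongest locus is that with the highest mean percentile over the lists with a peak there. At all 3 loci the median percentile was 59.5 for Jun, 89.0 for ATF3 and 88.5 for JunD. This choice can thus favour loci without Jun, and the class of a strongest locus is given as a description only. Macrophage lineage regulators had a locus at 12 of 12 genes and an all 3 locus at 8, against 9 in wild type. Runx1 held 27 loci, 8 of them all 3, the strongest with counts of 190, 29 and 138. Mitf held 9, with 1 all 3 locus against 7 of 16 in wild type, and Tfeb, a lysosomal gene regulator, held 13 with 4. Csf1r, the receptor of the macrophage growth factor CSF1, had its strongest knockout locus in the ATF3 and JunD class (67 and 105), where wild type had all 3.

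Surface receptors had a locus at 16 of 17 annotated genes, an all 3 locus at 8 and, in wild type, at 15. Cx3cr1, the fractalkine receptor, held an intronic all 3 locus with 161, 45 and 167, and the promoter of Cd14, a co-receptor of TLR4, held 1 with 133, 38 and 118. Loci next to Cd68 (100 and 118) and in Tlr4 (93 and 93) were ATF3 and JunD in the knockout and all 3 in wild type. Of the 16 lysosome genes, all had a locus and 9 an all 3 locus, against 13 in wild type. At the promoter of Cd63, a tetraspanin of lysosomes, the counts were 90, 37 and 135, and in the cholesterol transporter gene Npc1 they were 153, 29 and 143. In Ctsb, a cathepsin, the strongest locus had ATF3 (132) and JunD (132) without Jun, and in Atp6v0d2 it had ATF3 alone (111), and both were all 3 in wild type.

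Inflammatory mediators were covered at 17 of 17 genes with an all 3 locus at 3, against 10 in wild type. Il1rn, the interleukin-1 receptor antagonist, had 139 for ATF3 and 139 for JunD at its strongest locus, and Nos2 had 109 and 98, both all 3 in wild type. The Ccl3 promoter (104) and a locus 6275 bp from the TSS of Cxcl1 (97) had ATF3 alone. Feedback inhibitors had a locus at 13 of 15 genes and an all 3 locus at 7, against 11 in wild type. At the Trib1 promoter the counts were 185, 47 and 223, and in Tnip1 132, 41 and 126. Dusp1, a MAP kinase phosphatase, held 17 loci with 4 all 3 in the knockout and 13 of 13 in wild type, the strongest at 184, 38 and 170. For Tnfaip3 the strongest locus had 129 and 105 without Jun.

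PPARγ and lipid target genes had a locus at 15 of 18 genes and an all 3 locus at 6, against 11 in wild type, and any Jun peak at 6 against 14. In Pparg itself, 9 knockout loci lay in the gene or within 5 kb, and none had Jun, whereas 6 of the 8 wild-type loci did and 4 were all 3. Over all loci, Jun was at 4290 of 35464 in the knockout and at 15535 of 29552 in wild type, so few Jun loci are to be found at any gene of the knockout. Pparg is not called particular in this. The strongest of them (chr6:115463064-115463303) had 73 for ATF3 and 128 for JunD, and wild type had 127, 60 and 130. Abca1, a cholesterol exporter, had its strongest locus with ATF3 alone (106), Cd36, a scavenger receptor, with ATF3 and JunD (113 and 66), and Nr1h3, which encodes LXRα, with JunD alone (68). Wild type had all 3 at the Cd36 and Nr1h3 loci and ATF3 and JunD at that of Abca1. Elsewhere in the knockout, Cd36 held 3 all 3 loci and Abca1 held 1, while Nr1h3 held none.

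AP-1 genes had a locus at 15 of 15, an all 3 locus at 4 and Jun at 8, against 12 and 12 in wild type. The Jun promoter had 90, 33 and 70 and the Jund promoter 64, 32 and 125, both all 3 in wild type, and the Fosb promoter had ATF3 alone in both (79 in the knockout). Matrix proteases and inhibitors had a locus at 10 of 11 and an all 3 locus at 4, against 8. Plau, the urokinase gene, had 101, 27 and 83, the Mmp8 promoter had ATF3 alone (88), and Mmp9 had 28 for ATF3 and 101 for JunD. Iron and redox genes had a locus at 9 of 11 and an all 3 locus at 4, against 3. Srxn1, an antioxidant enzyme, had 120, 30 and 133 at its promoter. Fth1, which encodes the ferritin heavy chain, had a JunD only locus in both genotypes (94 and 84), and the locus near Hmox1 was ATF3 and JunD in both.

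Markers of other cells that a peritoneal exudate can hold were near the share of all genes in having a locus. A knockout locus was found for 3 of 6 neutrophil genes, 1 of 4 eosinophil, 1 of 4 mast cell, 3 of 5 B cell, 3 of 5 T cell and 1 of 3 mesothelial genes, 12 of 27 in all. An all 3 locus was found at 1 of them, Ccr3 (83, 17 and 44). In wild type the numbers with a locus were 2, 2, 0, 3, 3 and 1, and those with an all 3 locus 1, 2, 0, 2, 1 and 1, in the same order. S100a9, Ly6g, Mpo, Epx, Prg2, Cpa3, Tpsb2, Mcpt4, Cd79b, Pax5, Cd3e, Msln and Wt1 had none in either genotype. A peak near a marker gene does not measure its expression, and the part of other cells in the lists was not tested.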

How the data were processed

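ChIP-seq peak lists of TGEMs were used as deposited. Per the methods, the authors aligned reads to mm10 with Bowtie2 (BALB/cJ reads to a strain genome, with positions shifted back), called peaks against input with HOMER, and kept peaks of replicate pairs with an IDR below 0.05. The lists deposited by the authors hold a count per peak, whole tags that were not scaled (how replicates were combined was not stated), and an IDR score from 540 to 1000. Whether coordinates start at 0 or 1 was not stated, so sequence windows could be shifted by 1 bp. Of 30 lists, 12 were not used and 1 of the 30 was empty. Input libraries have no list used here.

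Lists were merged at a minimum overlap of 1 bp into loci of 7 classes. Percentile ranks used the count. Promoters were centres within 1 kb of a TSS of a protein-coding GENCODE vM21 gene, and genes were taken with 5 kb on either side. Exact motifs were counted on both strands in the central 200 bp of GRCm38 and in flanks 2 kb away. Analyses used Python 3.11.15, numpy 2.4.6, pandas 2.3.3, scipy 1.17.1 and matplotlib 3.10.9, and the scripts were tested on simulated data. With 1 list per condition no test was possible. Shares carry 95% Wilson and differences 95% Newcombe intervals, covering counting of loci only.

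The loci, gene lists and comparisons were chosen with earlier results of these data known. Named loci were the 3 of each class with the highest mean percentile, the strongest peak of each monomer, the strongest loci differing in Jun between genotypes, and the 4 genes of each macrophage list with the highest ranked locus. One locus that this rule names is not reported here. Other genes in the text were named after their values were seen. Alternatives changed list lengths, score, overlap, promoter distance and distal loci.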

Additional observations from a re-analysis of the deposited data

How the results depend on the processing

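Class sizes followed list length. With the strongest 50% of each list the knockout held 1805 loci with all 3, 5711 with exactly 2 and 9144 with exactly 1, in place of 3178, 10142 and 22144. With every list at the length of the shortest knockout list these were 1812, 1824 and 3786. With peaks of score 1000 only, all 3 numbered 1572 and exactly 1 numbered 12522.

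The share of loci in the same class in wild type (20.9%) was 27.9%, 33.5% and 21.7% under those 3 choices in the same order, 28.3% with wild-type lists at knockout lengths and 22.1% at least 3 kb from a TSS. The share of ATF3 and JunD loci with wild-type Jun (49.4%) was 56.6%, 70.9%, 53.9%, 13.6% and 53.0% in that order. The PU.1 difference between all 3 and 1 monomer (31.8 points) was 20.8, 13.9 and 24.6 points with the strongest 50%, the shortest length and score 1000, and the CEBPα difference (30.6 points) was 19.5, 18.7 and 26.8 points. The promoter difference between JunD only and ATF3 only (10.4 points) was 21.8, 7.01 and 21.7 points, and 8.79 points with promoters of 500 bp. No value changed sign, and the cause of these shifts was not tested. Leaving out loci off the assembled chromosomes and counting overlap on the central 200 bp were chosen after seeing the data, and moved no share or difference beyond its interval. The CEBPα difference in the top 20% by mean rank (-3.71 points) was -13.0 points with the strongest 50% and -8.78 points with score 1000.

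No paired analysis was possible because each condition has 1 list. Without read depths, a peak missing from a list could not be told apart from a weak one.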
